A study of Mus musculus with 43 samples.

Results

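CTLL-2 is a mouse cytotoxic T cell line whose growth and survival depend on the cytokine interleukin 2 (IL-2). The comparison described here sets cells starved for 8 h more (no IL-2 8 h, n = 3 arrays) against cells starved for 4 h more (no IL-2 4 h, n = 4 arrays), 7 of the 43 arrays of the series. The arrays were chosen by their titles. Both groups were grown with human recombinant IL-2 to mid-log phase, washed, and starved of the cytokine for 14 h before the further time began, so that they had been without it for 22 h and 18 h. All came from the same cell line, received nothing in place of IL-2 and differ in hours of culture as well as in hours without the cytokine, which cannot be told apart. In the other groups used here, cells starved in the same way were given IL-2 at 100 U/mL and collected after 8 h (n = 3) or 4 h (n = 4). The labels of the 7 arrays do not say whether replicates came from separate cultures, so the p-values measure the spread between arrays. In the main fit that spread is pooled over all 43 arrays of the series, most of which are not among these 7. The number of arrays limits the precision.

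IL-2 binds a receptor built from IL2RA, IL2RB and the common gamma chain, and signals through JAK1 and JAK3 to the transcription factor STAT5, and through the MAP kinase and PI3 kinase pathways. STAT5 induces feedback inhibitors such as CISH and the SOCS proteins, the kinase PIM1 and the receptor chain IL2RA itself, while MYC drives ribosome production and growth. When the cytokine is withdrawn, FOXO factors are released from inhibition and induce genes of quiescence and of cell death, among them Pik3ip1 and Bmf, and T cells leave the cell cycle.

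One of the 7 arrays went against its label. The library labelled no IL-2 4 h replicate 2 read like an array of cells given IL-2. Its place was measured over 954 probe sets that differed by at least 4-fold between IL-2 8 h and no IL-2 8 h, arrays that do not include it. On a scale where 0 is the mean of the other arrays of its group and 1 is the mean of IL-2 4 h, it lay at 0.75. With it left out of the group mean, the other no IL-2 4 h arrays lay at 0.005, -0.011 and 0.072. Its mean correlation with the rest of its group was 0.935, against 0.964 among the other no IL-2 4 h arrays and 0.962 among the no IL-2 8 h arrays. Between the no IL-2 8 h arrays and those other no IL-2 4 h arrays the mean correlation was 0.961, about as high as within either group. The log2 differences between no IL-2 8 h and no IL-2 4 h below are therefore given with and without replicate 2. All IL-2 arrays were scanned in 1 year and all 7 no IL-2 arrays in another, so that this scale, and any level set between IL-2 and no IL-2 arrays, differs by scan year as well as by IL-2, which cannot be told apart. Replicate 2 itself was scanned in the year of the other no IL-2 arrays.

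The median signals of the arrays were 61.0 to 69.5 in no IL-2 8 h and 55.3 to 59.8 in no IL-2 4 h, so that every no IL-2 8 h array was higher. The actin 3'/5' signal ratio, a sign of RNA quality, was 1.53, 1.41 and 1.41 in no IL-2 8 h, against 1.34, 1.18, 1.23 and 1.26 in no IL-2 4 h. The groups did not overlap in this ratio, and its part in the results below was not tested. All no IL-2 8 h arrays and 3 of the no IL-2 4 h arrays were scanned on 1 day, and no IL-2 4 h replicate 3 on another. Of 15 T cell markers on the array, 14 were above the array median on all 7 arrays; Cd2 was below it. No B cell marker (0 of 4) or erythroid marker (0 of 2) was, and 3 of 5 macrophage and 1 of 5 fibroblast markers were. The summed signal of the macrophage markers was 1775 to 1965 in no IL-2 8 h and 1909 to 2343 in no IL-2 4 h. That of the fibroblast markers was 150 to 345 in no IL-2 8 h and 177 to 297 in no IL-2 4 h.

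**Figure D1:**
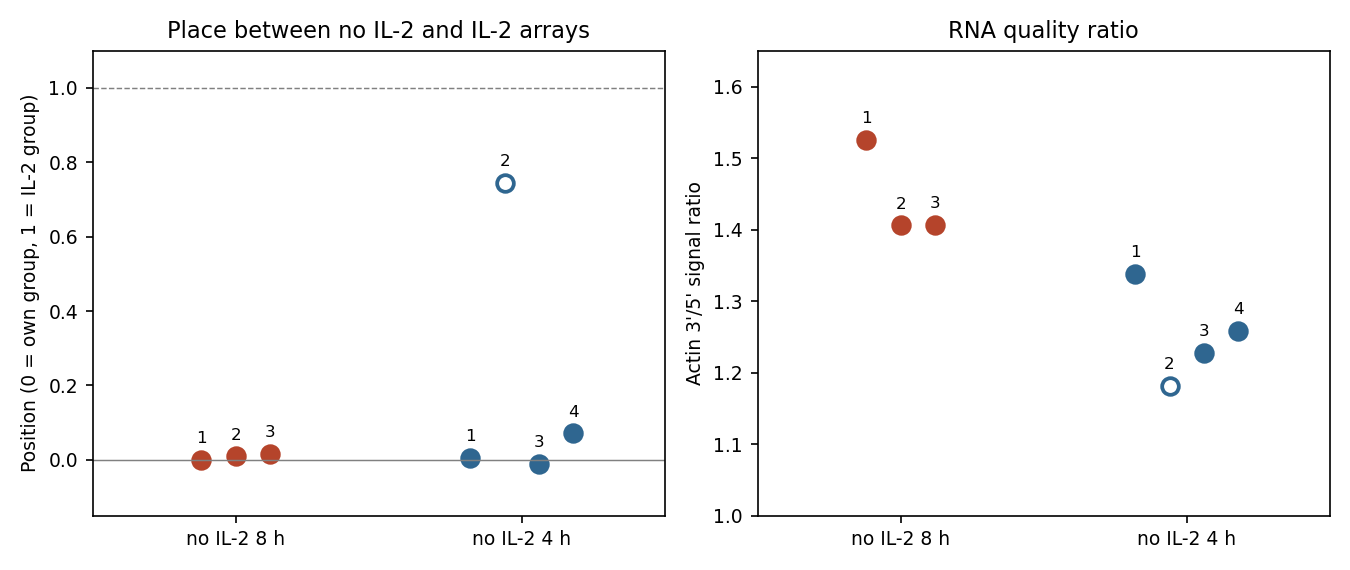
Left, place of each array between the no IL-2 mean (0) and the IL-2 mean of the same time (1), without unit; right, actin 3'/5' signal ratio. Points are single arrays with their replicate number, the open point is no IL-2 4 h replicate 2, and 0 is by construction near the no IL-2 8 h arrays, which helped choose the probe sets. Replicate 2 sits at 0.75, and the ratio is 1.41 to 1.53 in no IL-2 8 h against 1.18 to 1.34 in no IL-2 4 h.

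Between no IL-2 8 h and no IL-2 4 h almost nothing passed the test. Of 32184 probe sets, 1 was called at an adjusted p under 0.05 (0.00311%), a probe set of Cdc7 that was lower in no IL-2 8 h, and the same probe set was the only one called without replicate 2 (0.00311%). No probe set was called higher in either comparison. The test was limma on log2(signal + 16), with the spread pooled over all 43 arrays and Benjamini-Hochberg adjustment. At an unadjusted p under 0.05 there were 1670 probe sets with replicate 2 (5.19%) and 933 without it (2.90%). These counts depend on the pooled spread, with a median SD over probe sets of 0.55 on the log2 scale. That SD was 0.24 within no IL-2 8 h and 0.41 within no IL-2 4 h (0.27 without replicate 2). In limma fits to the compared arrays alone, 2431 probe sets with replicate 2 and 3526 without it had an unadjusted p under 0.05. The median difference over all probe sets was 0.06 on the log2 scale with replicate 2 and 0.03 without it. The 95% interval lay wholly within 2-fold in either direction for 40.9% of the probe sets and within 4-fold for 94.6% (41.3% and 92.7% without replicate 2). For the other probe sets a difference of over 2-fold lay within the interval, so that a gene that was not called is not shown to be unchanged. An exact permutation test of a single gene could not go below p = 0.0571 with 3 against 4 arrays, or 0.1 with 3 against 3.

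Cdc7 encodes the kinase that activates the replicative helicase at origins of DNA replication. Its called probe set had signals of 7.6, 20.5 and 18.1 in no IL-2 8 h, against 87.9, 280.8, 125.9 and 81.4 in no IL-2 4 h. All no IL-2 8 h arrays lay below all no IL-2 4 h arrays. Replicate 2 was the highest of the 7 and lay among the IL-2 4 h arrays, which had 205.5 to 289.6. The log2 difference was -2.22 ± 0.34 (SE, adjusted p = 0.00297 by limma), and -1.87 ± 0.33 without replicate 2 (adjusted p = 0.0484 by limma). The no IL-2 8 h signals were below their array medians, where the size of a difference depends on the constant added before the logarithm. A second probe set of Cdc7 did not show the difference, with signals of 48.9, 4.2 and 57.5 in no IL-2 8 h, against 58.2, 121.2, 44.8 and 3.2 in no IL-2 4 h. Its log2 difference was -0.36 ± 0.49 (0.05 ± 0.49 without replicate 2). The call was lost when no IL-2 8 h replicate 1 was left out (adjusted p = 0.175 by limma), in a fit to the 7 arrays alone (adjusted p = 0.662), with a constant of 64 (adjusted p = 0.239) and on averaging both probe sets (adjusted p = 0.595). For Cdc7 without no IL-2 4 h replicate 2, leaving out any of the other 6 arrays ended the call (adjusted p of 0.0535 to 1.00 by limma). In bulk samples like these, fewer cells of a type and less RNA per cell cannot be told apart.

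The genes next in order of p did not pass the test and are given as values. They were taken by a rule, as those with the smallest p among genes whose groups do not overlap, so that the absence of overlap is no finding. Of the 24 genes the rule gave with replicate 2, 15 were also among the 24 it gave without it. In 10 of the first 24 and 15 of the second, a group mean lay below the highest array median, where signals are faint.

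Tnfrsf9 encodes 4-1BB, a costimulatory receptor of activated T cells. Its signals were 4577, 3696 and 4846 in no IL-2 8 h, against 6880, 15519, 11585 and 11123 in no IL-2 4 h, so that every no IL-2 8 h array was lower. The log2 difference was -1.31 ± 0.27 (adjusted p = 0.243 by limma), and -1.14 ± 0.28 without replicate 2 (adjusted p = 0.815). This probe set was called in 5 of 20 alternative settings, and in 1 of 19 without replicate 2. The other Tnfrsf9 probe set differed by -0.79 ± 0.43, and by -0.65 ± 0.46 without replicate 2. Wdr1, whose product promotes actin filament disassembly with cofilin, had 4733, 4869 and 5528 in no IL-2 8 h and 6108, 11294, 8279 and 8350 in no IL-2 4 h. Rraga, encoding the GTPase RagA that brings amino acid signals to mTORC1, had 494, 525 and 516 in no IL-2 8 h and 751, 1543, 1630 and 790 in no IL-2 4 h. For Wdr1 the log2 difference was -0.72 ± 0.17, or -0.57 ± 0.16 without replicate 2. For Rraga it was -1.09 ± 0.25, or -0.93 ± 0.26 without replicate 2. Fes, a cytoplasmic tyrosine kinase, was fainter, at 16.5, 41.8 and 33.1 in no IL-2 8 h and 78.9, 171.2, 114.6 and 149.2 in no IL-2 4 h (log2 difference -1.63 ± 0.34, adjusted p = 0.243 by limma, and -1.49 ± 0.36 without replicate 2, adjusted p = 0.815).

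On the higher side, Atp5h, a subunit of the mitochondrial ATP synthase, had the smallest p. Its signals were 39136, 36823 and 34962 in no IL-2 8 h, against 25605, 19661, 23312 and 23643 in no IL-2 4 h. The log2 difference was 0.69 ± 0.15 (adjusted p = 0.344 by limma), and 0.61 ± 0.16 without replicate 2. Snx5, a sorting nexin of endosomes, had 10952, 11440 and 10970 in no IL-2 8 h and 9249, 4482, 6903 and 6189 in no IL-2 4 h (log2 difference 0.78 ± 0.19, or 0.60 ± 0.19 without replicate 2). Ppp2r3a, a regulatory subunit of the phosphatase PP2A, had 941, 962 and 926 in no IL-2 8 h and 674, 262, 535 and 561 in no IL-2 4 h. Its log2 difference was 0.95 ± 0.22, or 0.67 ± 0.20 without replicate 2. Smaller log2 differences of 0.57 ± 0.17 for the ribosomal protein gene Rps20 and 0.55 ± 0.16 for the complex I subunit gene Ndufb10 stood beside them, and neither passed the test. Without replicate 2 these were 0.51 ± 0.19 for Rps20 and 0.45 ± 0.16 for Ndufb10.

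Of a panel of 24 genes of IL-2 signalling, survival and quiescence, 23 were measured and 0 were called with or without replicate 2. At an unadjusted p under 0.05 there were 1 higher and 8 lower with replicate 2, beside 2.59% and 2.35% of all genes, and 0 higher and 2 lower without it, beside 1.38% and 0.991%. In 19 of 23 genes replicate 2 was nearer to the IL-2 4 h mean than to that of the other no IL-2 4 h arrays. Il2ra had 2795, 2845 and 2919 in no IL-2 8 h, against 4061, 19429, 3241 and 4254 in no IL-2 4 h. Its log2 difference was -1.01 ± 0.32, but -0.42 ± 0.22 without replicate 2. Myc had 268, 368 and 299 in no IL-2 8 h and 885, 9089, 419 and 1160 in no IL-2 4 h, with a log2 difference of -2.14 ± 0.59, and of -1.25 ± 0.49 without replicate 2 (unadjusted p = 0.0147, adjusted p = 1.00 by limma). In both genes every no IL-2 8 h array lay below every no IL-2 4 h array, replicate 2 left out or not.

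Of the feedback inhibitors Cish, Socs1 and Socs3, none was called, and the genes were not tested against each other. Socs1 had 181, 151 and 75.1 in no IL-2 8 h, against 402, 5350, 237 and 579 in no IL-2 4 h (log2 difference -2.40 ± 0.56, or -1.46 ± 0.43 without replicate 2). Cish had 1043, 928 and 939 in no IL-2 8 h, against 1676, 13108, 859 and 2067 in no IL-2 4 h, and the groups overlapped because no IL-2 4 h replicate 3 was lowest. Its log2 difference was -1.36 ± 0.47, or -0.56 ± 0.35 without replicate 2. For Socs3 the signals were 1094, 1103 and 1036 in no IL-2 8 h, against 1419, 5812, 858 and 1018 in no IL-2 4 h. The log2 difference was -0.60 ± 0.51 with replicate 2 and 0.00 ± 0.48 without it.

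Promoters of these genes were looked at for the letters that STAT5 binds, TTCNNNGAA, which read the same on both strands. The genes (Cish, Socs1, Socs3, Il2ra, Pim1 and Cdc7) were picked after their values were seen. Each promoter runs from 250 bases before to 50 after the gene start in the RefSeq table of GRCm38.p6. Cish held the letters in 2 places, both in the 50 bases from the gene start on. Socs3 held them in 1 place and so did 1 of 2 promoters of Cdc7, in both cases before the gene start. Those of Socs1, Il2ra and Pim1 did not hold them in this window. The letters occurred in 8.3% of all 32851 promoters, and in at least 1 promoter of 8 of 30 genes of the IL-2 and STAT5 list and of 9.55% of all 27025 genes. A match is a description of the sequence and not a binding site. In all of these genes replicate 2 was the highest no IL-2 4 h array, whether or not a promoter held the letters. The promoters of Cish (chr9:107296409-107296708, plus strand) and Socs3 (chr11:117969317-117969616, minus strand) are shown because they hold the letters, given in capitals, 5′ to 3′.
Cish: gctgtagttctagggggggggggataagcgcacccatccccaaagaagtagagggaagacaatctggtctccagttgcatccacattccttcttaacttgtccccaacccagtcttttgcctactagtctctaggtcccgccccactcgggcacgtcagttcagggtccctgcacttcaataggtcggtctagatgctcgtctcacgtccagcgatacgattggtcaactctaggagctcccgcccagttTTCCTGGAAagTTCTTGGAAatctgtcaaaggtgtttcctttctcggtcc
Socs3: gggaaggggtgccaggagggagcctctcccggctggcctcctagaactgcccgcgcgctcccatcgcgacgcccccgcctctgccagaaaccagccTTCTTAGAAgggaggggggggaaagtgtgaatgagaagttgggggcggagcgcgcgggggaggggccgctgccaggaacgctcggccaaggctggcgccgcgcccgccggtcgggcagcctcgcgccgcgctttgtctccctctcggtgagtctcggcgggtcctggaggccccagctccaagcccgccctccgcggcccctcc

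The quiescence and death genes of the panel ran the opposite way on replicate 2. Pik3ip1, an inhibitor of PI3 kinase, had 2008, 2008 and 2118 in no IL-2 8 h, against 2031, 75, 2281 and 1869 in no IL-2 4 h. The MYC antagonist gene Mxd4 had 2252, 1944 and 2126 in no IL-2 8 h, against 2471, 224, 2778 and 2427 in no IL-2 4 h. Without replicate 2 the log2 difference of Pik3ip1 was -0.01 ± 0.61 in place of 1.12 ± 0.74, and that of Mxd4 was -0.28 ± 0.67 in place of 0.58 ± 0.72. The BH3-only gene Bmf had 1619, 1848 and 1869 in no IL-2 8 h, against 1838, 99.4, 1379 and 1334 in no IL-2 4 h (log2 difference 1.17 ± 0.59, or 0.24 ± 0.48 without replicate 2). The signs of Pik3ip1 and Mxd4 thus rested on 1 array. Mcl1, a survival factor, differed by 0.00 ± 0.26 with replicate 2 and -0.07 ± 0.28 without it, and Gzmb, a granule protease of cytotoxic T cells, by 0.00 ± 0.21 and 0.13 ± 0.22.

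**Figure D2:**
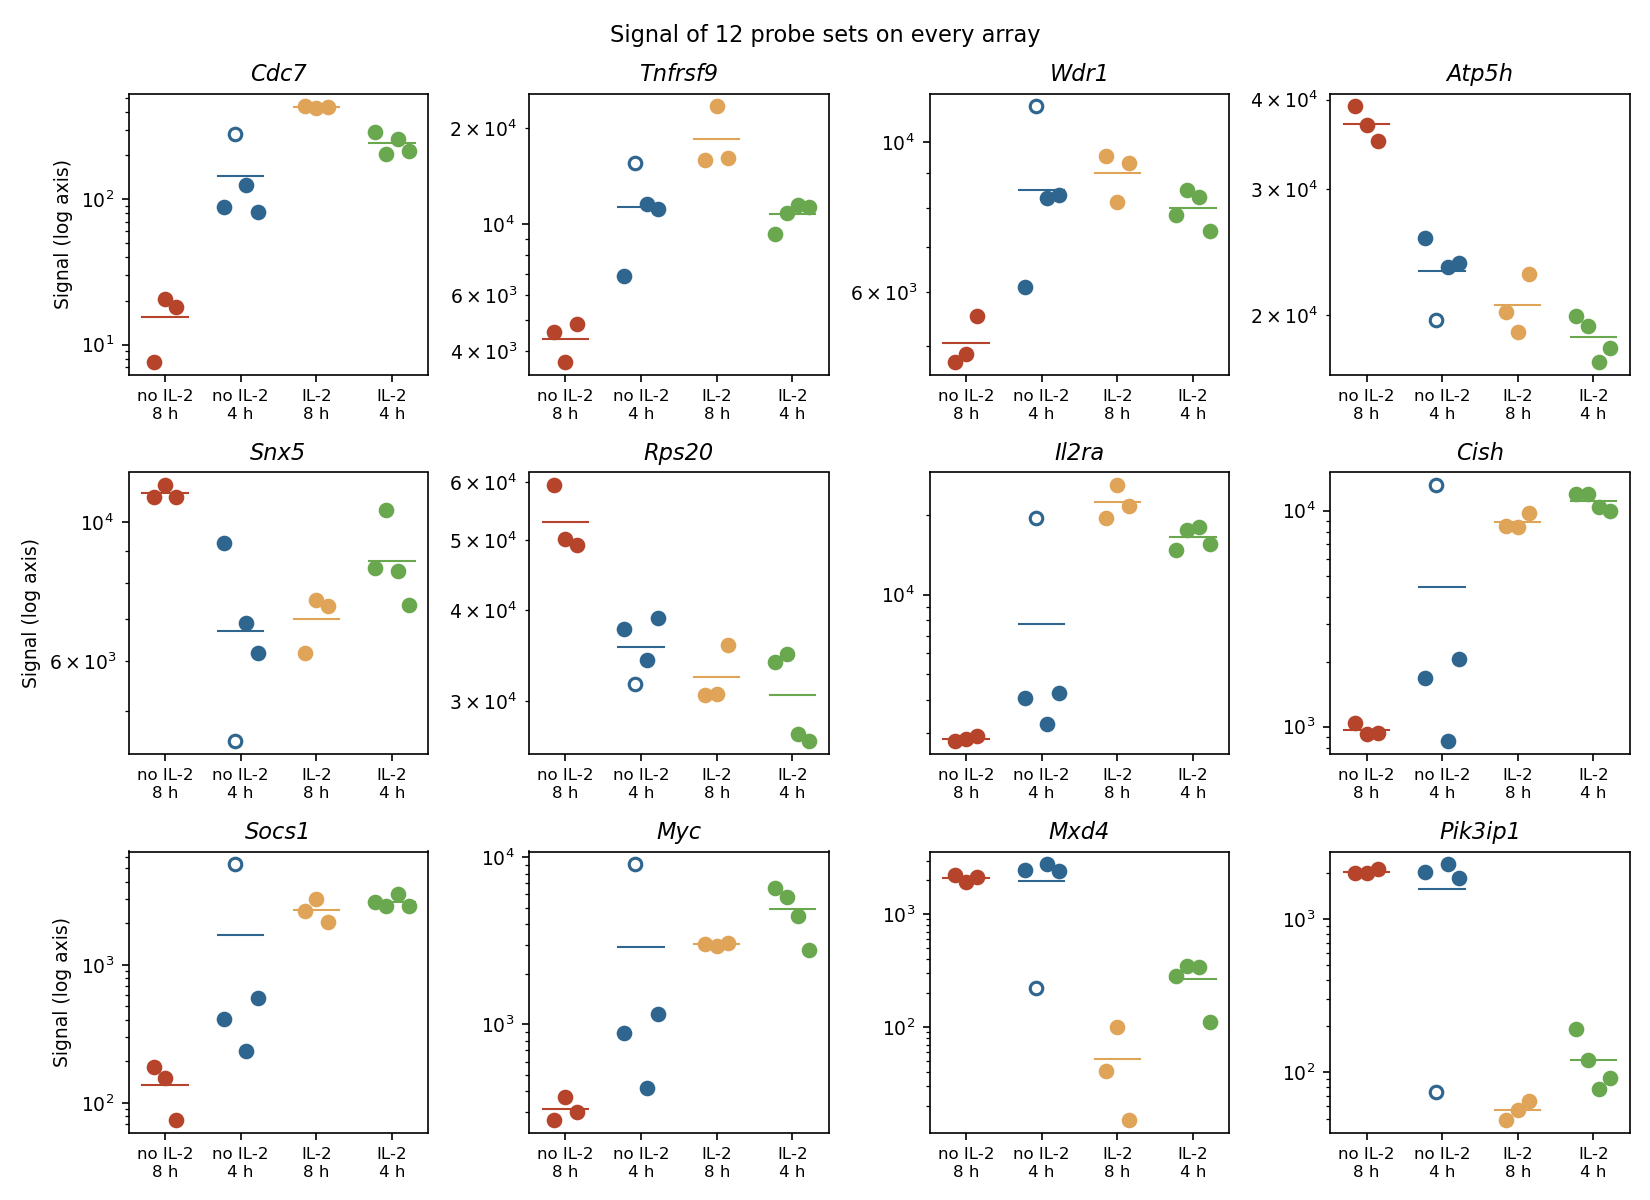
Signal (log axis, arbitrary units) of 12 genes, with no IL-2 8 h, no IL-2 4 h, IL-2 8 h and IL-2 4 h from left to right; points are arrays, lines are group means, and the open point is no IL-2 4 h replicate 2. In Il2ra, Cish, Socs1, Myc, Mxd4 and Pik3ip1 the open point stands with the IL-2 arrays. In Cdc7 and Tnfrsf9 the no IL-2 8 h arrays lie below all others, and in Cdc7 the open point lies among the IL-2 4 h arrays.

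Gene lists were described by counts and medians, without a test of the list. Over all 14534 genes, 1 was called (0.00688%), the median log2 difference was 0.04 (0.01 without replicate 2), and 5.37% were lower in all no IL-2 8 h arrays than in all no IL-2 4 h arrays (9.27% without replicate 2). The same share for higher genes was 5.88% (8.66% without replicate 2). At an unadjusted p under 0.05, 2.59% were higher and 2.35% lower with replicate 2, and 1.38% and 0.991% without it. Known IL-2 and STAT5 response genes had 0 of 35 called, with 1 higher and 13 lower at an unadjusted p under 0.05 (0 and 3 without replicate 2). Their median was -0.46 with replicate 2 and -0.10 without it. Ribosome biogenesis genes had 0 of 34 called (1 higher and 5 lower at an unadjusted p under 0.05, and 1 and 1 without replicate 2) and a median of -0.36 with replicate 2 and 0.07 without it. Quiescence and FoxO targets had 0 of 27 called (4 higher and 0 lower at an unadjusted p under 0.05, and 0 and 0 without replicate 2) and a median of 0.48 with replicate 2 and -0.14 without it. The last 2 lists changed sign when 1 array was left out.

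The G2/M and mitosis list kept its sign, and so did others, such as the cholesterol and fatty acid synthesis genes below. None of its 46 genes was called, the median was -0.34 with replicate 2 and -0.45 without it, and 44 of 46 were above the array median on all 7 arrays. Without replicate 2, 42 of 46 differences were negative and 23 of 46 genes were lower in every no IL-2 8 h array than in every no IL-2 4 h array, beside 9.27% of all genes. With replicate 2, 36 of 46 were negative and 10 of 46 did not overlap, beside 5.37% of all genes. Set against single no IL-2 4 h arrays, the mean of no IL-2 8 h gave list medians of -0.74, 0.12, -0.36 and -0.29 for replicates 1 to 4. Replicate 2 was thus the array against which the median was positive. At an unadjusted p under 0.05 there were 1 higher and 0 lower with replicate 2 and 0 without it. The lowest adjusted p of any member was 0.958 by limma, and it belonged to the higher one, Smc4. Its log2 difference was 0.72 ± 0.35, or 0.49 ± 0.37 without replicate 2.

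Members of this list are named after their values were seen. Top2a, the topoisomerase that untangles chromosomes before they separate, had 685, 666 and 482 in no IL-2 8 h, against 1160, 938, 1055 and 1112 in no IL-2 4 h. Aurka, a kinase of spindle poles, had 307, 262 and 233 in no IL-2 8 h, against 456, 376, 413 and 371 in no IL-2 4 h. The log2 difference was -0.80 ± 0.64 for Top2a and -0.57 ± 0.63 for Aurka, and in both genes the groups did not overlap. Without replicate 2 it was -0.86 ± 0.69 for Top2a and -0.60 ± 0.69 for Aurka. Ube2c encodes the ubiquitin-conjugating enzyme that works with the anaphase-promoting complex. It had 2638, 2503 and 2272 in no IL-2 8 h, against 4280, 2384, 4747 and 4402 in no IL-2 4 h. Its log2 difference was -0.63 ± 0.84 with replicate 2. Without it, the difference was -0.85 ± 0.91 in the pooled fit, and -0.85 ± 0.10 (adjusted p = 0.0337 by limma) in a fit to those 6 arrays alone, where it was the 1 probe set called. Cdc20, the activator of that complex, had 2030, 1741 and 1681 in no IL-2 8 h, against 2170, 941, 1871 and 1723 in no IL-2 4 h, and its groups overlapped. The log2 difference of Cdc20 was 0.17 ± 0.68 with replicate 2 and -0.08 ± 0.73 without it. Kif11, a spindle motor with the largest difference in the list when replicate 2 was kept, had 106, 124 and 34.3 in no IL-2 8 h and 237, 128, 165 and 145 in no IL-2 4 h. That difference was -0.92 ± 0.59, or -1.03 ± 0.64 without replicate 2.

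Genes of G1/S and DNA replication did not show the same pattern. Cdc7 was the 1 of 46 called, and the median was 0.11 with replicate 2 and 0.14 without it. With each array centred on its median, these became -0.04 and -0.01, so that the sign depended on the scaling. Most differences ran opposite to Cdc7, with 29 of 46 positive (35 without replicate 2). Without overlap of the groups, 7 were higher and 1 lower, beside 5.88% and 5.37% of all genes. Without replicate 2 these were 11 and 1, beside 8.66% and 9.27%. For cytosolic ribosomal proteins 20 of 32 listed genes were tested and 0 were called, with 5 higher and 0 lower at an unadjusted p under 0.05 (4 and 0 without replicate 2). All 20 differences were positive with and without replicate 2, with medians of 0.26 and 0.29, from 0.01 to 0.62 and from 0.04 to 0.51. Against single no IL-2 4 h arrays the medians were 0.60, 0.21, 0.36 and -0.05 for replicates 1 to 4, so that replicate 4 did not show it. After quantile normalisation the medians were 0.00 with and without replicate 2. Rps20 had 59429, 50196 and 49106 in no IL-2 8 h, against 37731, 31625, 34129 and 38989 in no IL-2 4 h, with every no IL-2 8 h array higher. Rpl27 had 74263, 59005 and 58404 in no IL-2 8 h, against 39992, 68553, 47525 and 81546 in no IL-2 4 h, with overlapping groups. The probe sets of Rpl27 disagreed in size: this one, the brightest, differed by 0.15 (0.24 without replicate 2), and the others by 0.72 and 0.66 (0.65 and 0.59 without replicate 2), none of them called. The probe set at 0.72 was called with array weights (adjusted p = 0.0149 by limma). Ribosomal protein genes have many near-identical pseudogenes, so that their probe sets may share signal.

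**Figure D3:**
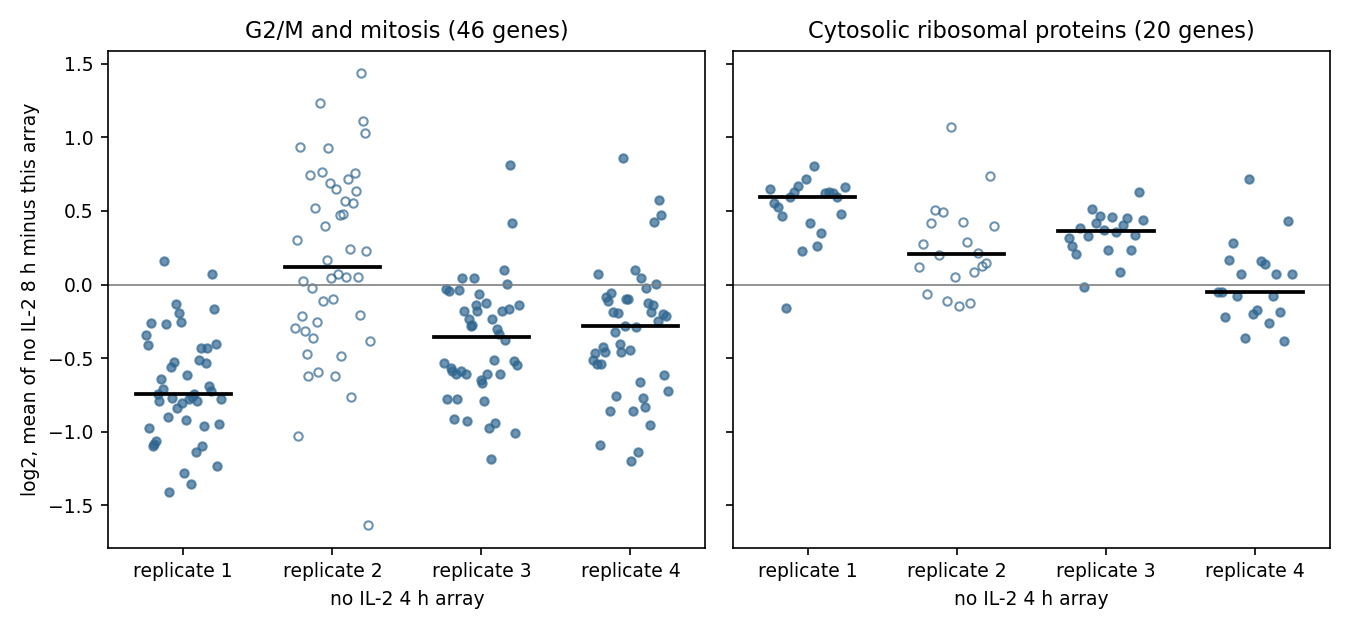
Each point is a gene, placed at its log2 signal averaged over the 3 no IL-2 8 h arrays minus that of 1 no IL-2 4 h array; black lines are medians and open points are replicate 2. Mitosis genes have medians of -0.74, -0.36 and -0.29 against replicates 1, 3 and 4 and 0.12 against replicate 2, and ribosomal protein genes 0.60, 0.36 and -0.05, and 0.21.

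The other lists described had 0 called as well. Oxidative phosphorylation subunits had 0 of 35 called and medians of 0.00 and 0.03 with and without replicate 2. Of the 35, 6 were higher and 3 lower without overlap of the groups (7 and 3 without replicate 2). At an unadjusted p under 0.05, 4 were higher and 1 lower, beside 2.59% and 2.35% of all genes. Without replicate 2 these were 4 and 0, beside 1.38% and 0.991%. Pro-apoptotic factors had 0 of 21 called and medians of -0.01 and -0.05, and survival factors 0 of 15 and medians of 0.00 and -0.07. The interferon response list changed sign, with medians of 0.07 and -0.10 and 0 of 25 called. ATF4 and amino acid response genes had a median of 0.29 with replicate 2 and 0.06 without it, with 0 of 24 called. Of the 24, 7 were higher and 0 lower without overlap of the groups (9 and 2 without replicate 2). Cholesterol and fatty acid synthesis genes had 0 of 22 called and medians of -0.11 and -0.15. Of the 22, 1 was higher and 7 were lower without overlap (2 and 8 without replicate 2). Cytotoxic effectors, cytokines and chemokines had medians of 0.00 with and without replicate 2, with 0 of 28 called. Chaperones had 0 of 22 called and medians of -0.01 and 0.14. Of these 22, 1 was higher and 0 were lower without overlap (9 and 0 without replicate 2). Over all genes, 5.88% were higher and 5.37% lower without overlap (8.66% and 9.27% without replicate 2).

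**Figure D4:**
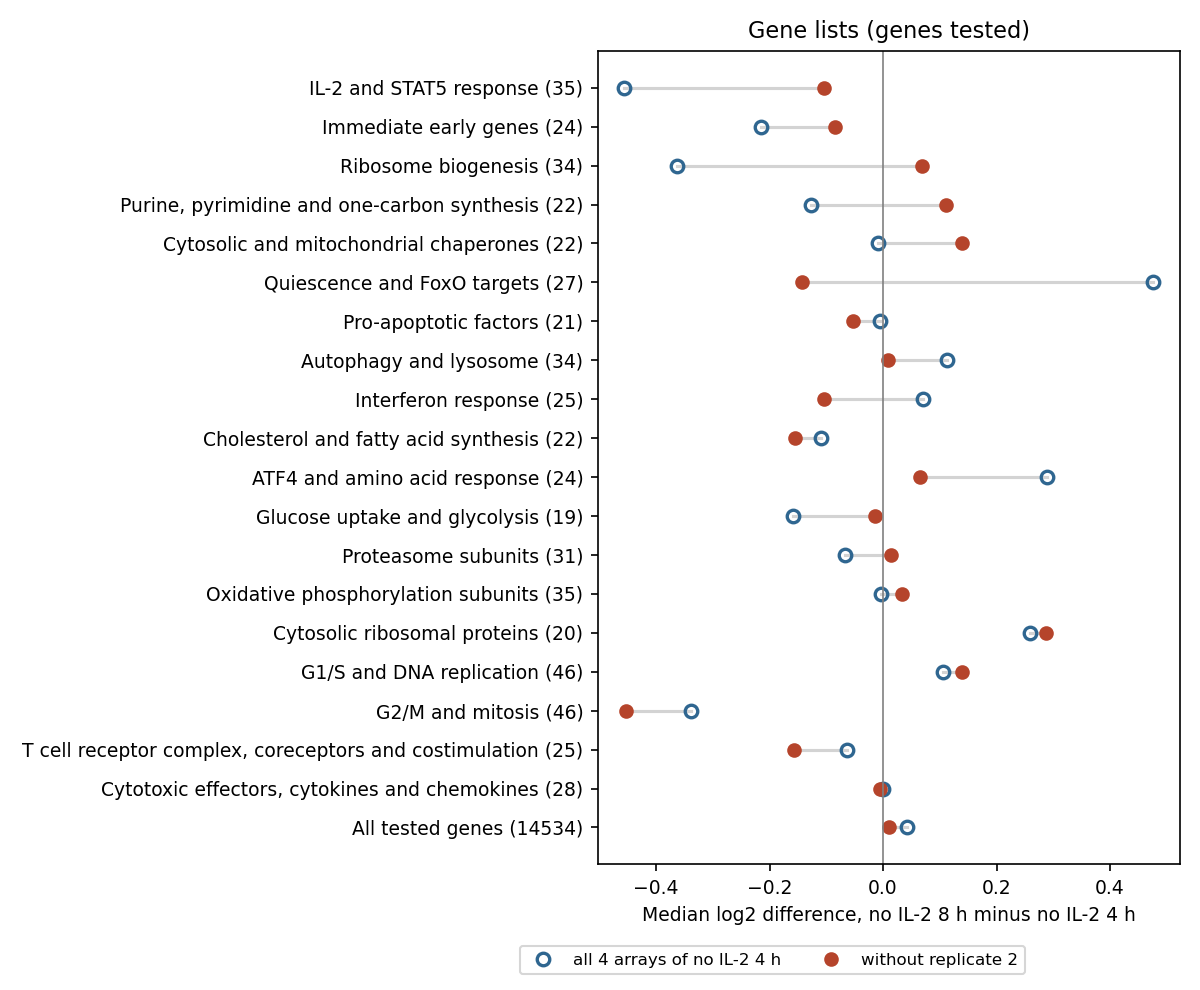
Median log2 difference of each gene list, no IL-2 8 h minus no IL-2 4 h, with the number of genes tested in brackets; open points use all 4 no IL-2 4 h arrays and filled points leave out replicate 2. Quiescence targets lie at 0.48 and -0.14 and ribosome biogenesis at -0.36 and 0.07, while G2/M and mitosis genes lie at -0.34 and -0.45.

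With IL-2 present, the same step in time gave 159 calls, on arrays of the other scan year. In IL-2 8 h against IL-2 4 h these were 0.494% of the probe sets, 84 higher and 75 lower, with the same number of arrays per group. In genes, 54 were higher and 48 lower there (0.702% of all genes), and of these 102 genes 0 were called between no IL-2 8 h and no IL-2 4 h, with 5 higher and 3 lower at an unadjusted p under 0.05 (1 and 2 without replicate 2). The 54 genes had a median log2 difference of 0.01 without IL-2 (0.06 without replicate 2) and of 1.42 with it. For the 48 genes these were 0.21 (0.04 without replicate 2) and -1.12. Since these genes were chosen on the IL-2 arrays, the sizes with IL-2 are a description. G1/S and DNA replication genes had 18 of 46 called higher with IL-2 and a median of 1.17.

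The difference between the time differences was tested as an interaction, and 16 probe sets were called (0.0497%), 6 positive and 10 negative. Without replicate 2, 2 remained (0.00621%), those of Cdc7 and Dnajc3. With each gene represented by its probe set of highest mean, 11 of 14534 genes were called, and only Cdc7 without replicate 2. The called probe set of Dnajc3 was not the one that represents the gene, which was not called. Cdc7 had an interaction of -3.02 ± 0.48 (adjusted p = 0.007 by limma), and of -2.67 ± 0.45 without replicate 2 (adjusted p = 0.016). Dnajc3, a chaperone of the endoplasmic reticulum, had 658, 877 and 907 in no IL-2 8 h and 1141, 1217, 1489 and 1005 in no IL-2 4 h. Its log2 time difference was -0.57 without IL-2 and 0.99 with it, an interaction of -1.55 ± 0.26 (adjusted p = 0.008 by limma). Tnfrsf9 differed by -1.31 over time without IL-2 and by 0.76 with it (interaction -2.08 ± 0.38, adjusted p = 0.026 by limma, and 0.080 without replicate 2). For Rrm2, the small subunit of ribonucleotide reductase, the time difference was 0.15 without IL-2 and 2.48 with it (interaction -2.33 ± 0.47, adjusted p = 0.046 by limma, and 0.136 without replicate 2). Pink1, a kinase of damaged mitochondria, differed by 0.52 without IL-2, by 0.10 without replicate 2, and by -1.77 with IL-2 (interaction 2.29 ± 0.47, adjusted p = 0.046 by limma, and 0.140 without replicate 2). The count of 16 was unstable, from 0 to 63 when single arrays were left out.

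**Figure D5:**
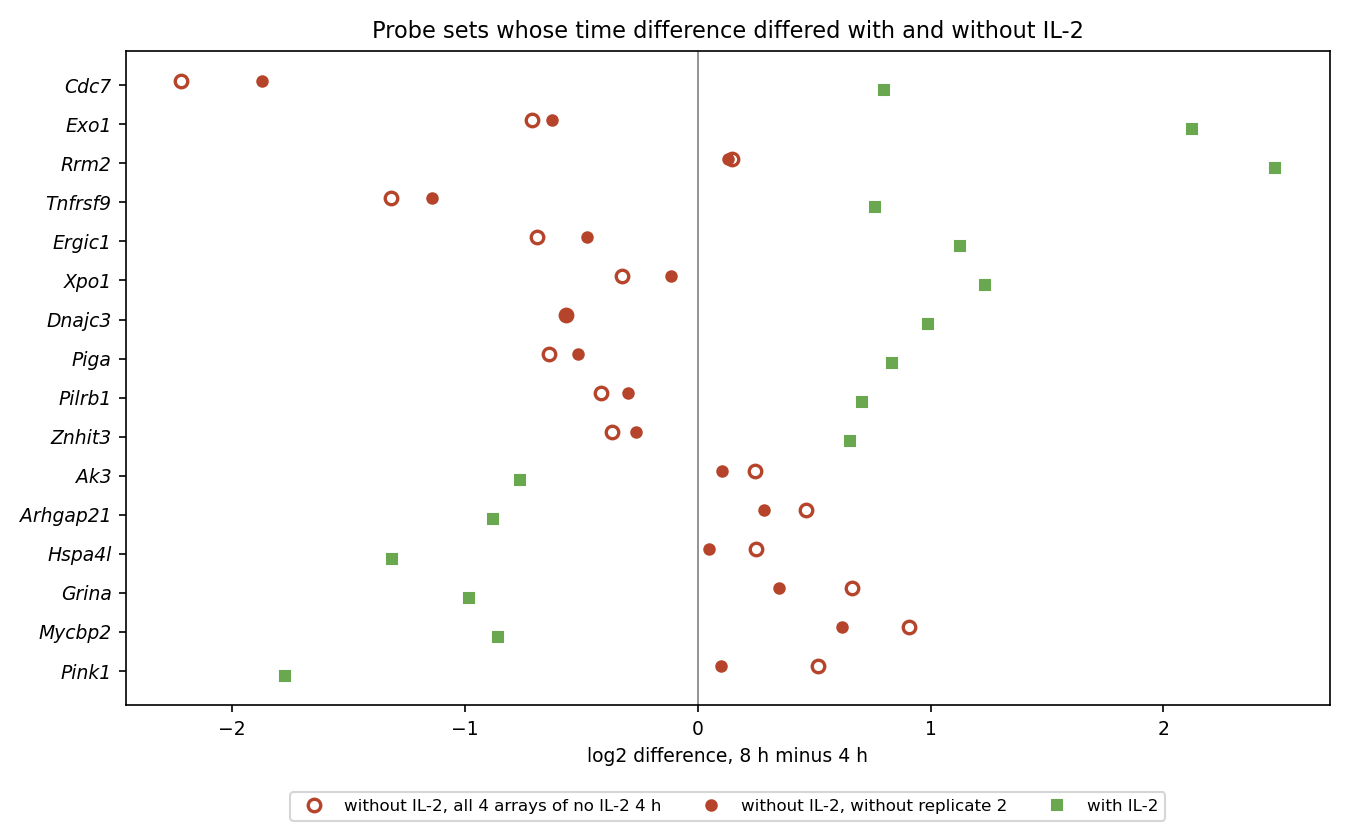
Log2 difference of 8 h minus 4 h for the 16 probe sets whose time difference was called different, without IL-2 (circles, open with all arrays and filled without no IL-2 4 h replicate 2) and with IL-2 (squares). Cdc7 lies at -2.22 and -1.87 without IL-2 and 0.80 with it, and Rrm2 at 0.15 and 0.13 against 2.48.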

How the data were processed

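Signal intensities of 45101 probe sets of an Affymetrix mouse genome array were deposited by the authors on a linear scale, computed in GCOS 1.3 per the submitters' processing notes. The 2% trimmed mean was 500.0 on every array here, and detection calls were not used. The log2 values were computed here from the deposited signals as log2(signal + 16). Probe sets that exceeded the array median on 3 or more of 43 arrays were tested (32184 probe sets, 14534 genes, each represented by the probe set of highest mean). The tests used limma (3.58.1, R 4.3.3), with 13 group means, 30 residual degrees of freedom, a variance trend, two-sided tests and Benjamini-Hochberg adjustment over all probe sets. The script was tested on simulated data. Errors beside log2 differences are limma's standard errors. Scan days came from the experiment files.

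Named genes followed a rule: per direction the 12 genes called, filled by smallest p among genes whose groups do not overlap, with and without no IL-2 4 h replicate 2; the largest member of each list; a panel of 24; and the 6 largest interactions. It gave 84 genes, some of which the text names. The comparison, members and lists were chosen with earlier results of these data known. Exceptions, chosen after their values were seen, are the other interaction probe sets (Dnajc3 among them), second probe sets, Ube2c, Top2a, Aurka, Cdc20 and Rpl27, and the promoters.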

Additional observations from a re-analysis of the deposited data

Results flagged for a closer look

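Of 89 values tested, over the 84 genes of the naming rule and 5 measures of the arrays, 15 had 1 no IL-2 4 h array far from the other 3 (gap over range above 0.829). In 14 of 15 that array was replicate 2; chance flags about 1 in 20 where values are unselected, a rate that does not apply here. The rule chose genes on these same arrays, partly by comparisons that leave replicate 2 out, so that genes such as Mtag2 and Svop entered with replicate 2 apart, and the values are not independent. Its position between no IL-2 4 h and IL-2 4 h was 0.746, and its mean correlation with its group was 0.935. Its log2 signal was high for Il2ra (14.25), Pim1 (12.99), Hsd17b7 (10.38), Rars (12.88), Mtag2 (6.02) and Svop (6.21). It was low for Mxd4 (7.90), Pik3ip1 (6.51), Bmf (6.85), Srrm2 (12.48), Pink1 (8.97) and Hspa4l (10.04). In 4930562C15Rik the outlying array was replicate 4, at 5.33.

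The time difference without IL-2 was below that with IL-2 by the interaction test for Cdc7 (-3.02), Exo1 (-2.83), Rrm2 (-2.33), Tnfrsf9 (-2.08), Ergic1 (-1.82), Xpo1 (-1.56), Dnajc3 (-1.55), Piga (-1.47), Pilrb1 (-1.12) and Znhit3 (-1.02). It was above that with IL-2 for Pink1 (2.29), Mycbp2 (1.76), Grina (1.64), Hspa4l (1.56), Arhgap21 (1.34) and Ak3 (1.01). Without replicate 2 only Cdc7 and Dnajc3 passed. For Exo1, Ergic1, Xpo1, Dnajc3 and Mycbp2 the called probe set was not the one of highest mean, and that one was not called.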

How the results depend on the processing

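Few calls held across settings. With replicate 2, the count of 1 became 2 with a constant of 1, 2 after quantile normalisation, 2 with scan day as a random block, 5 with it as a fixed block and 32 with array weights (12 higher and 20 lower). It became 0 with a constant of 64, in the fit to only the 7 arrays and on averaging the probe sets of each gene, and was 0 to 2 with single arrays left out. Without replicate 2, the 1 became 25 with array weights. It became 0 with a constant of 64, no filter, scan day as a fixed block and no variance trend. An adjusted p under 0.01 and averaging the probe sets of each gene gave 0 as well. With single arrays left out the count was 0 to 1. The 1 came with no IL-2 4 h replicate 4 left out, and was a probe set without a gene name, higher in no IL-2 8 h, and not Cdc7. The interaction count of 16 became 4 with a constant of 64, 5 after quantile normalisation, 1 after median centring, 5 with no filter, 57 with a filter at the 75th percentile, 74 in the fit to only the arrays compared, 46 and 79 with scan day as a fixed and a random block, 2 with no variance trend, 901 with array weights, 2 at an adjusted p under 0.01, 0 on averaging the probe sets of each gene and 0 to 63 with single arrays left out. The cause was not tested. Array weights gave replicate 2 a weight of 0.321, against 1.33 to 1.97 for the other 6 arrays, and none of these settings replaces the fit reported.

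Replicate numbers did not pair the arrays (correlations of -0.039, -0.033 and -0.002), and with the replicate block the counts were 0, 0 and 3. Over 84 named genes, 70 of 3228 values under an alternative changed sign, 6 of them in genes differing by over 0.5. Median centring moved the median of all probe sets to -0.09 (-0.11 without replicate 2). Under it the ribosomal protein median was 0.11, that of G2/M genes -0.49, and that of G1/S and DNA replication genes -0.04. Without replicate 2, Cdc7 was called in 6 of 19 alternatives, and in the fit to only those 6 arrays the 1 call was Ube2c. Faint signals limit Cdc7, Fes and Kif11.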
